A study of Homo sapiens with 8 samples.

Results

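Metallothioneins are small, cysteine-rich proteins that hold zinc and copper ions in clusters of thiolate bonds and buffer the free metal of the cell. Their genes are switched on by MTF1, a zinc finger transcription factor that senses zinc and binds metal response elements in their promoters, and glucocorticoids and cytokines are further known inducers. MTF1 also acts on SLC30A1 (ZnT1), the zinc exporter of the plasma membrane, so that storage and export are coupled. The genes described here are MT2A, MT1E, MT1F, MT1G, MT1M and MT1X, with MTF1 and SLC30A1, which makes 8 of the 58735 genes measured. They were chosen by the value of MT2A in unstimulated cells, where it fell most after WSB2 knockdown, and all 8 symbols matched an identifier of the expression tables through release 29 of GENCODE. Since the choice used the comparison of unstimulated KD and control cells, the values of that comparison are given as a description with no test, and so are those of the comparisons with TNF-α, which share libraries with it. For these 8 genes only KD against control cells after TNF-α was tested, while genes outside the set were tested in the other comparisons too. The main fit took its spread from all 8 libraries, so that test also draws on the libraries that chose the genes.

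The cells were U2OS, an established human osteosarcoma line, in which WSB2, the substrate-recognising subunit of a ubiquitin ligase, was depleted with a lentiviral shRNA in the pLKO.1 vector, as a stable line selected with puromycin (WSB2-KD). Control cells are labelled as carrying a control shRNA. Each was left unstimulated or was treated for 5 h with the inflammatory cytokine TNF-α, and each of these 4 groups had 2 libraries. RNA was sequenced in bulk, so less of a transcript in every cell and fewer cells with the transcript cannot be told apart. Nothing states that the libraries of a group came from separate cultures, and p-values therefore measure only the spread between these libraries. Which of the study's WSB2 shRNAs was used for sequencing is not given in the sources used here, and neither is the concentration of TNF-α for these libraries.

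Levels are FPKM, fragments scaled to exon length and library size. The exon length used is 1299 bases for MT2A and 1773 for MT1X, the whole span of each gene, and 1052 for MT1E. It need not be the length of the mature transcript, so comparisons of levels between genes are approximate. The reads recovered from the values numbered between 15601098 and 18677023 per library. WSB2 itself was at 27.7 and 28.0 FPKM in control cells and at 8.38 and 8.52 FPKM in the KD cells without TNF-α. Once stimulated, it was at 25.0 and 25.3 FPKM in control cells and at 9.00 and 9.18 FPKM in KD cells. The KD libraries were thus all below the control libraries, with a log2 difference of -1.37 ± 0.07 (SE) after TNF-α (limma, Benjamini-Hochberg adjusted p = 0.00113). Without replicate 2 of the KD cells with TNF-α the difference was -1.39 and its adjusted p 0.0519 (limma). An exon of WSB2 overlaps RFC5 on the other strand, and the strand of counting is not stated. VIM, SPARC and COL1A1, genes of mesenchymal cells and bone matrix, were at high levels in all 8 libraries (VIM from 146 to 240 FPKM), whereas COL1A2, the partner chain of COL1A1, was at most at 0.093 FPKM, and RUNX2 and ALPL lay between 1.22 and 5.41 FPKM. SP7 and BGLAP, which mark differentiated osteoblasts, had 1 and 25 reads in all libraries together. Of 5 leukocyte markers none passed the filter on low reads.

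The 2 unstimulated KD libraries stood apart from the other 6 in measures that concern no single gene. Mitochondrial reads made up 4.10% and 4.42% of their reads and at most 2.03% in the others. The mean GC content of their reads was 50.6% and 50.1%, against 53.2% or more elsewhere, and 26225 and 26397 genes had a read in them, against at most 22957. The difference between unstimulated KD and control cells fell with the GC content of the gene (Spearman -0.70 across 16520 genes, which are not independent), and after TNF-α it did not (0.04). For unstimulated cells the log2 differences of the named genes are therefore given also after a correction of each library for GC content and gene length.

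The 6 metallothionein genes lie within 1 cluster on chromosome 16 (GRCh38). MT2A is at chr16:56608199-56609497, MT1E at chr16:56625475-56627112 and MT1X at chr16:56682424-56684196, all on the plus strand. MT1M, MT1F and MT1G lie between MT1E and MT1X, starting at 56632233, 56657694 and 56666731, MT1G on the minus strand. MTF1 (chr1:37809567-37859620) and SLC30A1 (chr1:211571568-211578742) are on the minus strand of chromosome 1. The coding sequences of the 3 metallothioneins with reads are shown because the genes are close copies whose reads have to be told apart. They were read from the GRCh38 genome with GENCODE release 29, 5′ to 3′, and capitals mark bases of MT1E and MT1X that differ from MT2A.
MT2A: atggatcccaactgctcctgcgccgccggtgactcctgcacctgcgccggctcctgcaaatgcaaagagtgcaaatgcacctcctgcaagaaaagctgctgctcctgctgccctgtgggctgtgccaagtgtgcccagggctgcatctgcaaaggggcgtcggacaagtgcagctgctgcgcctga
MT1E: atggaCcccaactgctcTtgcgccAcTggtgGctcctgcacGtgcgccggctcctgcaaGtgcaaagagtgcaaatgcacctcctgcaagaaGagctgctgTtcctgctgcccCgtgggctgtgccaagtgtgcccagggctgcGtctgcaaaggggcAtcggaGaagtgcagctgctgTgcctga
MT1X: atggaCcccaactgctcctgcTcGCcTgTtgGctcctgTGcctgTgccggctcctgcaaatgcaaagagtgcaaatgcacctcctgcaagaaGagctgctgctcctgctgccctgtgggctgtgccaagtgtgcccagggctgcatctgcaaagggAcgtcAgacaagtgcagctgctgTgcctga

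All 6 coding sequences had 186 bases with the stop codon, and 20 of their 61 other codons encode cysteine. MT1E and MT1X each differed from MT2A at 14 bases (92.5% identical), MT1G at 9 bases (95.2%), MT1F at 16 (91.4%) and MT1M at 19 (89.8%). Over whole transcripts, stretches of 100 bases were long enough to separate them. No such stretch of MT2A, MT1E, MT1F, MT1G, MT1M, MTF1 or SLC30A1 occurred in the transcripts of another gene, and of MT1X 11.3% did, all of them in AC026461.1, an overlapping gene on the same strand. How many MT1X reads fell in those stretches was not measured, so the size of the uncertainty in MT1X values is not known.

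Promoter sequences from RefSeq (GRCh38.p14, 250 bases before to 50 bases after the start site) were matched for MT2A, MT1X, MTF1 and SLC30A1, 4 of the 8 genes. They were searched on both strands for TGCACNC and TGCGCNC, the 2 forms of the metal response element core that MTF1 binds, which cannot match at the same base. MT2A had 8 matches, MT1X 4, SLC30A1 2 and MTF1 none. Of all 27305 promoters listed, 29.3% held at least 1 match, 8.59% at least 2, 0.593% at least 4 and 0.022% at least 8. The 3 promoters with matches are printed on the strand of the gene, with the matches in capitals.
MT2A: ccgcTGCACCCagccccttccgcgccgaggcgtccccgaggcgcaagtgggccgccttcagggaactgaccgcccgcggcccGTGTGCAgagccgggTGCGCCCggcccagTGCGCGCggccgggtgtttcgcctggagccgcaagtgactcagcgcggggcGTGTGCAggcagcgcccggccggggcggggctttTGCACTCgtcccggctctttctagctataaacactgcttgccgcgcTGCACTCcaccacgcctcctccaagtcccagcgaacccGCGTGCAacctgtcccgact
MT1X: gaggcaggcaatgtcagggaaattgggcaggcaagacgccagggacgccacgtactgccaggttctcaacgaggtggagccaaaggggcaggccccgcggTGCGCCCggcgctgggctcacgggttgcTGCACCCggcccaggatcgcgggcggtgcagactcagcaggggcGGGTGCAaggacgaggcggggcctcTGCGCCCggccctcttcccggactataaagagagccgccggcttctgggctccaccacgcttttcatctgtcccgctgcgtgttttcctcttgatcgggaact
SLC30A1: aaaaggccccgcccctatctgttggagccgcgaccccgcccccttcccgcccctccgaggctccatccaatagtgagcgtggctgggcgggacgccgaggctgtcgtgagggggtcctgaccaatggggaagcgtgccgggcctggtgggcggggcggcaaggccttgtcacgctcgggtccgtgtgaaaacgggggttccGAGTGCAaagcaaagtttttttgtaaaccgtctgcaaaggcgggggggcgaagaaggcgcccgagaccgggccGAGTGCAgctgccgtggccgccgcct

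These windows are chr16:56608334-56608633 for MT2A, chr16:56682220-56682519 for MT1X and chr1:211579112-211579411 for SLC30A1. In MT2A the matches ran from base -246 before the start site to base 36 after it, in MT1X from -150 to -47, and in SLC30A1 one began at -49 and one at 24. A match describes the letters of the window and not a bound site.

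Expression within the family was concentrated in MT2A and MT1E. MT2A had 73064 reads over the 8 libraries, MT1E 19147 and MT1X 793. MT1F, MT1G and MT1M had none in any library (0 of 133682980 reads, which allows up to 0.0224 RPM, reads scaled to library size and not to gene length). Of 17 metallothionein symbols, 16 of them in the cluster between bases 56565049 and 56684196, 11 had no read, 3 had between 1 and 14 reads and 3 passed the filter on low reads. With MTF1 and SLC30A1, 5 of the 8 genes passed. This filter kept 16528 genes.

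MT2A had the highest level of these genes in 6 of the 8 libraries and differed most between groups. It was at 620.1 and 398 FPKM in unstimulated control cells and at 82.7 and 80.1 FPKM in the KD cells without TNF-α. Once stimulated, it was at 783 and 709 FPKM in control cells and at 415 and 399 FPKM in KD cells. The order of the groups was control with TNF-α highest and unstimulated KD lowest, and the 2 groups between them overlapped.

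**Figure D1:**
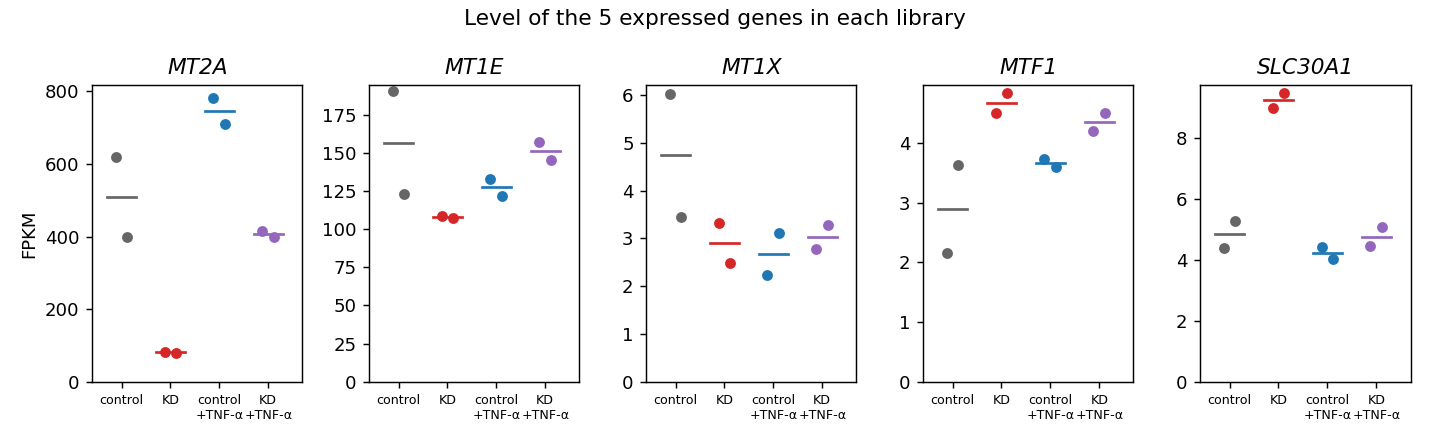
Level of each expressed gene in FPKM (linear axis from 0, a scale of its own for each gene) in the 4 groups. Points are libraries and lines are means of 2 libraries. MT2A is lowest in both unstimulated KD libraries (82.7 and 80.1 FPKM), where SLC30A1 is highest (9.01 and 9.48 FPKM).

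MT1E, the second metallothionein of these cells, was at 190.2 and 123 FPKM in unstimulated control cells and at 109 and 107 FPKM in KD cells. With TNF-α its level was 133 and 122 FPKM in control cells and 157 and 145 FPKM in KD cells. KD cells were thus below control cells without TNF-α and above them with it. MT1X was at 6.02 and 3.45 FPKM in unstimulated control cells and at 3.33 and 2.48 FPKM in KD cells. With TNF-α its level was 2.23 and 3.11 FPKM in control cells and 2.77 and 3.28 FPKM in KD cells, where the libraries of the groups overlapped.

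MTF1, the metal-sensing factor, was at 2.15 and 3.63 FPKM in unstimulated control cells and at 4.51 and 4.84 FPKM in KD cells. With TNF-α it was at 3.74 and 3.60 FPKM in control cells and at 4.19 and 4.49 FPKM in KD cells. Its KD libraries were above the control libraries in both settings. SLC30A1, the exporter, was at 4.41 and 5.28 FPKM in unstimulated control cells and at 9.01 and 9.48 FPKM in KD cells. With TNF-α it was at 4.43 and 4.03 FPKM in control cells and at 4.47 and 5.07 FPKM in KD cells. Both unstimulated KD libraries were higher than the other 6 libraries, which lay between 4.03 and 5.28 FPKM.

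After TNF-α, KD cells had 1.83-fold less MT2A than control cells by the means (407 ± 11.2 against 746 ± 51.7 FPKM, SD, n = 2 each), and 1.13-fold to 1.19-fold more MT1E, MT1X, MTF1 and SLC30A1. The log2 difference on the log2(FPKM + 1) scale was -0.87 ± 0.19 (SE) for MT2A, the 18th lowest of 16528 genes. It did not pass the test in the fit over all 8 libraries (limma, unadjusted p = 0.00216, adjusted p = 0.207). With only the 4 libraries compared, which leaves out the unstimulated cells, the same difference passed (adjusted p = 0.0355, limma). The adjusted p was 0.049 with voom on the recovered reads and 0.0595 after the correction for GC content and length, where the difference was -0.86. Leaving out unstimulated control library 1 or 2 gave adjusted p = 0.00943 and 0.00953 (limma). Over all alternatives the adjusted p ran from 0.00943 to 0.85. The call thus depended on which libraries set the spread and on how the variance was modelled, and the 2 unstimulated control libraries differed most from each other (variance 33.0 times sampling noise, against 2.49 to 7.23 in the other groups).

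MT1E differed by 0.25 ± 0.18 (SE; limma, adjusted p = 0.844), MT1X by 0.14 ± 0.23 (adjusted p = 0.965), MTF1 by 0.19 ± 0.17 (adjusted p = 0.894) and SLC30A1 by 0.14 ± 0.11 (adjusted p = 0.860, all log2 and limma). Of the 5 genes tested 0 were called, and 1, MT2A, had an unadjusted p under 0.05. Among all genes 19 were called (0.115%), of which WSB2 was one. The KD libraries were all higher for MT1E, MTF1 and SLC30A1 and all lower for MT2A, 4 of the 5, where 46.2% of all genes tested had libraries that did not overlap. The median of the 5 differences was 0.14 and that of all genes 0.00. These SEs leave room for differences of MT1E, MT1X, MTF1 and SLC30A1 in either direction. With only the 4 libraries compared the SE of MT1E was 0.065 (limma, unadjusted p = 0.0119, adjusted p = 0.213).

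In unstimulated cells, MT2A was 6.26-fold lower in KD than in control cells by the means (81.4 ± 1.82 against 509 ± 157 FPKM, SD, n = 2 each), MT1E 1.45-fold lower and MT1X 1.63-fold lower. MTF1 was 1.62-fold and SLC30A1 1.91-fold higher. In this comparison 60.1% of all genes were called and 79.8% had libraries that did not overlap, as did all 5 of these genes. This is the comparison that chose them, and nothing is read from that count. The log2 difference of MT2A was -2.60 ± 0.19 (SE), the lowest of 16528 genes, and that of WSB2 itself was -1.61 (-1.42 after the correction). MT1E was at -0.50 ± 0.18, MT1X at -0.53 ± 0.23, MTF1 at 0.57 ± 0.17 and SLC30A1 at 0.81 ± 0.11. Leaving out unstimulated control replicate 1 or 2 gave -0.18 or -0.81 for MT1E, -0.20 or -0.85 for MT1X, 0.29 or 0.85 for MTF1 and 0.71 or 0.92 for SLC30A1.

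The 5 genes span GC contents of their exons from 38.0% in SLC30A1 and 46.7% in MTF1 to 53.0% in MT1X, 54.9% in MT1E and 56.1% in MT2A. Genes with 35% to 40% GC had a median log2 difference of 0.70 between unstimulated KD and control cells, and genes with 55% to 60% GC one of -0.40. After the correction for GC content and length, SLC30A1 was at 0.091 ± 0.086 (SE), MT1E at -0.086 ± 0.14 and MT1X at -0.18 ± 0.19, each within about 1 SE of no difference. MTF1 was at 0.34 ± 0.13. MT2A was at -2.12 ± 0.14. It was chosen for its value in this comparison, and nothing is read from its place among all genes. Scaled to total reads in place of the authors' scaling, which raised the median of all genes to 0.13, MT2A was at -2.32, MT1E at -0.22, MT1X at -0.31, MTF1 at 0.80 and SLC30A1 at 1.07.

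**Figure D2:**
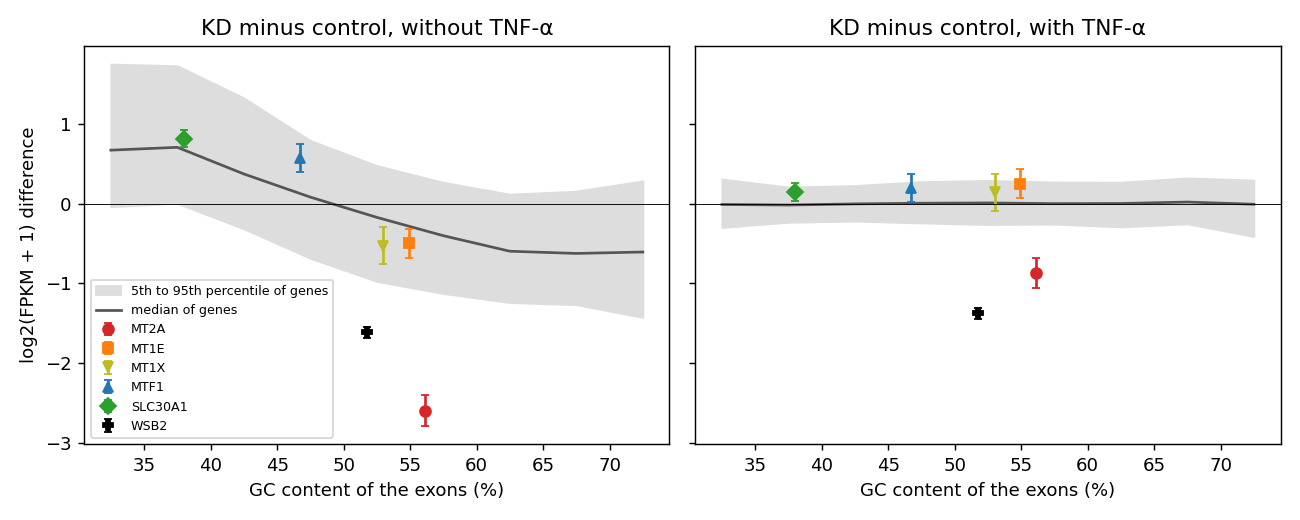
Log2 difference of KD minus control cells on the log2(FPKM + 1) scale against the GC content of a gene's exons in percent, without and with TNF-α. The line and the grey band are the median and the 5th to 95th percentile of genes in steps of 5% GC with 20 or more genes, and points are named genes ± SE. Without TNF-α the median falls from 0.70 at 35% to 40% GC to -0.60 at 60% to 65%, SLC30A1, MTF1, MT1E and MT1X lie within the band, and MT2A (-2.60) and WSB2 (-1.61) lie below it. With TNF-α the median is near 0 throughout.

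TNF-α was followed by more MT2A in both lines. By the means it was 1.47-fold higher with TNF-α in control cells and 5.00-fold higher in KD cells, log2 differences of 0.58 ± 0.19 and 2.31 ± 0.19 (SE), and 1.83 in KD cells after the GC correction. The 2 unstimulated control libraries set the first value, which was 0.90 without replicate 1 and 0.26 without replicate 2. These comparisons share the unstimulated libraries with the one that chose the genes, and whether the 2 differ was not tested. Of all genes 4.24% were called for TNF-α in control cells and 62.5% in KD cells.

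With TNF-α the other genes showed smaller differences than MT2A in KD cells and values of either sign in control cells. In control cells MT1E was at -0.26 ± 0.18, MT1X at -0.62 ± 0.23, MTF1 at 0.29 ± 0.17 and SLC30A1 at -0.16 ± 0.11 on the log2 scale (SE). Without unstimulated control replicate 1 these 4 values were 0.048, -0.29, 0.011 and -0.26, and without replicate 2 they were -0.58, -0.95, 0.57 and -0.050, so that MT1E changed sign with the library left out. In KD cells MT1E was at 0.48 ± 0.18, MT1X at 0.05 ± 0.23, MTF1 at -0.09 ± 0.17 and SLC30A1 at -0.83 ± 0.11. Corrected for GC content and length, these 4 values in KD cells were 0.07, -0.30, 0.09 and -0.11, so the directions of MT1X and MTF1 turned. With total-read scaling, which moved the median of all genes by -0.19, MT1X in KD cells also turned, to -0.24, and MT1E was at 0.10, MTF1 at -0.40 and SLC30A1 at -1.17. MT1X turned as well without unstimulated KD replicate 2 (-0.11), without KD replicate 2 with TNF-α (-0.041) and with upper-quartile scaling (-0.024).

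The ratio of MT2A to MT1E does not depend on how libraries are scaled, since both genes are measured in each library, and the replicates of each group were close in it. It was 3.26 and 3.24 in unstimulated control libraries and 0.760 and 0.747 in the KD libraries beside them. Control cells given TNF-α had ratios of 5.89 and 5.83, and KD cells given TNF-α had 2.65 and 2.75. By FPKM MT2A was thus the higher of the pair in every group except unstimulated KD cells. In the unstimulated KD libraries MT2A had 2128 and 2008 reads, and MT1E had 2269 and 2178. The size of the ratio depends on the exon lengths used, and its fold differences between groups do not. In unstimulated control cells the levels of the 2 genes differed 1.56-fold and 1.55-fold between the replicates, and the ratio hardly at all. After TNF-α the ratio was 2.17-fold higher in control than in KD cells (two-sided exact permutation test, p = 0.333, the smallest that 2 libraries against 2 can give).

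Together the 6 metallothionein genes gave 977 and 671 RPM in unstimulated control cells and 275 and 268 in unstimulated KD cells. With TNF-α the control libraries gave 1105 and 983 and the KD libraries 656 and 632. The largest 95% Wilson interval, that of the first control library after TNF-α, ran from 1089 to 1121 RPM, and such intervals cover counting error only. By the means the share was 3.03-fold lower in KD cells without TNF-α and 1.62-fold lower with it (two-sided exact permutation test of the latter, p = 0.333, again the smallest possible). MT2A made up 79.3% and 79.2% of these reads in unstimulated control cells and 47.1% and 47.0% in unstimulated KD cells. With TNF-α its share was 87.6% and 87.4% in control libraries and 76.0% and 76.6% in KD libraries.

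**Figure D3:**
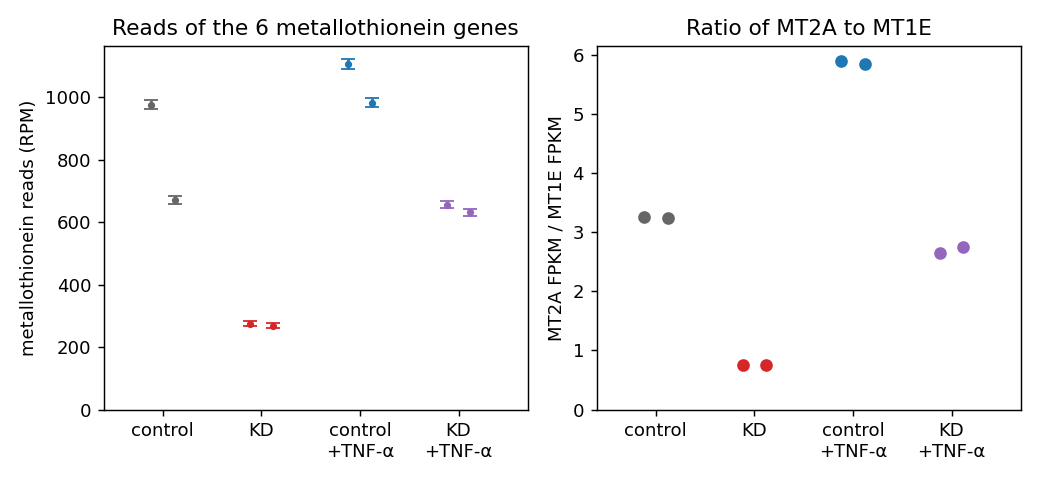
Reads of the 6 metallothionein genes in RPM, with 95% Wilson intervals that are about as small as the points (left), and the ratio of MT2A FPKM to MT1E FPKM (right), for each library. Both axes start at 0. The ratio is near 3.25 in unstimulated control cells and near 0.75 in unstimulated KD cells, with the replicates of each group almost on one level.

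The other genes of zinc transport were taken as the SLC30A exporters, which move zinc out of the cytosol, and the SLC39A (ZIP) importers, which move it in. After TNF-α, 0 of 7 exporters besides SLC30A1 and 0 of 11 importers were called between KD and control cells, where 0.115% of all genes were, with median log2 differences of 0.048 and 0.078. In unstimulated cells 4 of the 7 exporters were higher in KD cells and 2 lower (limma, adjusted p under 0.05, background 60.1%), with a median of 0.37. After the correction for GC content and length 2 were higher and 1 lower (background 51.2%) and the median was -0.024. SLC30A2 turned from called lower (-0.25) to called higher (0.30), and SLC30A4, at 0.23 and not called before, was called lower (-0.44). SLC30A2 had only 45 reads in all libraries together and was at most at 0.29 FPKM, so both of its calls rest on few reads. Of the 11 importers 4 were higher and 3 lower, with a median of -0.059, and 4 higher and 1 lower after the correction, where the median was 0.11. The 4 higher genes were not the same, since SLC39A8 and SLC39A9 were called only before the correction and SLC39A1 and SLC39A4 only after it, both with their sign turned. SLC39A1 and SLC39A4 had 227 and 168 reads in all libraries together and were at most at 0.77 and 0.36 FPKM, so their calls rest on few reads.

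SLC39A10, an importer of the plasma membrane, showed the largest difference of these genes, 1.42 ± 0.17 (SE; limma, adjusted p = 0.000378), from 3.60 ± 1.17 FPKM in control to 11.1 ± 1.00 FPKM in KD cells (SD, n = 2 each). It was at 0.64 after the correction (adjusted p = 0.005, limma). SLC39A6, a related importer, was at 1.19 ± 0.15 (limma, adjusted p = 0.0004) and at 0.94 after the correction. SLC39A3 was at -0.95 ± 0.15 (limma, adjusted p = 0.00109) and at -0.42 after it. Among exporters SLC30A9 was at 1.05 ± 0.10 and SLC30A6 and SLC30A7, both of the secretory pathway, at 0.82 ± 0.17 and 0.67 ± 0.12. After the correction these 3 were at 0.33, 0.12 and -0.22, so SLC30A7 turned direction. Like SLC30A1, with 38.0% GC, they have low GC contents, between 37.0% and 39.7%.

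**Figure D4:**
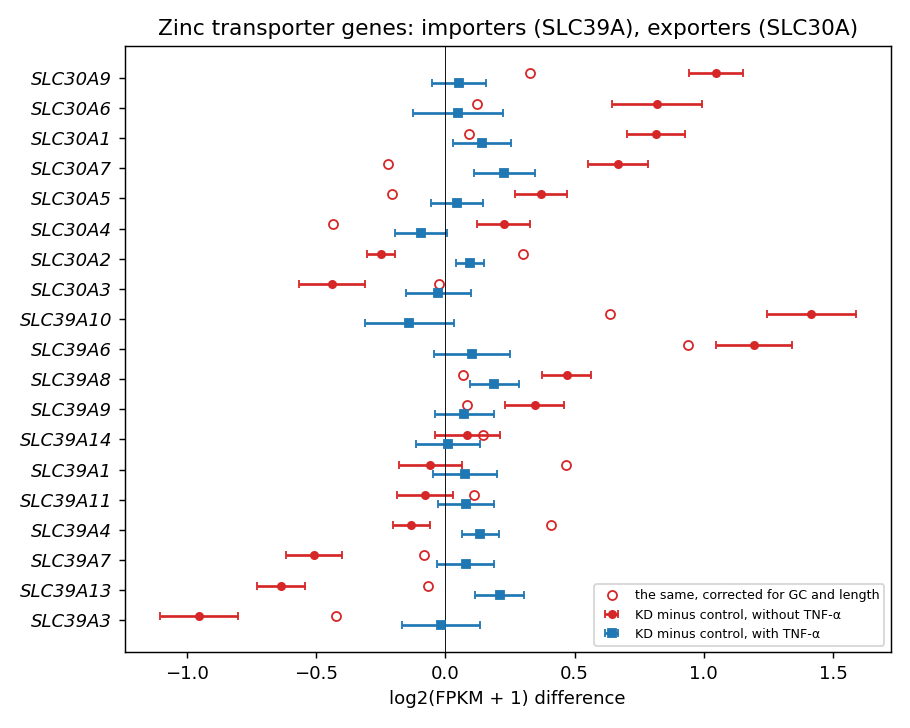
Log2 difference of KD minus control cells on the log2(FPKM + 1) scale for the 8 exporters and 11 importers that passed the filter on low reads. Filled symbols are fitted values ± SE without and with TNF-α, and open circles are the values without TNF-α after the correction for GC content and length. With TNF-α the values lie between -0.14 and 0.23, and without it SLC39A10 (1.42) and SLC39A6 (1.19) are highest.

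Copper handling genes were read as a second metal system, since metallothioneins also bind copper. After TNF-α 0 of 10 were called between KD and control cells (background 0.115%, median -0.031). Without TNF-α 1 was higher and 6 were lower in KD cells, with a median of -0.46 (background 60.1%), and 2 were higher and 4 lower scaled to total reads. Without unstimulated control replicate 1 the 7 called became 4 (background 54.0%), and without unstimulated KD replicate 2 they became 2 (background 45.9%). After the correction 1 was higher and 6 were lower, with a median of -0.28 and a background of 51.2%, but these were not the same genes. ATP7A and CCS were no longer called, SLC31A1 and SCO1 became called lower, and SCO2 turned from -0.42 to 0.25. The symbol SCO2 has 2 identifiers, and the one used had only 56 reads in all libraries together. It had 11 and 5 reads in unstimulated control and 3 and 0 in unstimulated KD libraries, so its values rest on few reads. The 3 largest were CCS, the copper chaperone of SOD1, at -0.83 ± 0.24 (SE; limma, adjusted p = 0.0176), ATOX1, the chaperone of the copper ATPases, at -0.81 ± 0.21 (adjusted p = 0.0104), and ATP7A, such an ATPase, at 0.80 ± 0.14 (adjusted p = 0.00161). After the correction CCS was at -0.22, ATOX1 at -0.77 and ATP7A at -0.03.

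Glucocorticoid-induced genes were listed because MT2A is itself one. After TNF-α 0 of 9 were called between KD and control cells (background 0.115%), with a median of 0.15. ERRFI1, an inhibitor of EGF receptor signalling, had the largest difference, 0.59 ± 0.12 (SE; limma, adjusted p = 0.172), and it passed when either unstimulated control library was left out. Without TNF-α 4 were higher and 3 lower, where 60.1% of all genes were called, and 3 were higher and 1 lower after the correction, where 51.2% were. FKBP5 turned from called higher (0.30) to called lower (-0.30), and TSC22D3, PER1 and DUSP1 were no longer called. NR3C1, the glucocorticoid receptor itself, is in the list and these counts, and its level is not read as induction by glucocorticoids. NR3C1 was at 1.22 ± 0.12 (0.58 corrected), ERRFI1 at 0.72 ± 0.12 (0.69 corrected) and KLF9, a Krüppel-like factor, at 0.72 ± 0.13 (0.59 corrected). With TNF-α in control cells 4 of the 9 were higher and none lower, where the background was 4.24%. The count was 1 when any of the 4 libraries with TNF-α was left out, where the background was between 1.39% and 2.37%. They were ERRFI1, KLF9, PER1 and DUSP1, between 0.46 and 1.00 on the log2 scale.

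Cell type markers are given as sums of FPKM and as counts called beside the share of all genes. Nothing about the markers as a group is read from these counts. The 5 epithelial markers summed to 549 and 426 FPKM in unstimulated control cells and to 217 and 202 FPKM in unstimulated KD cells. After TNF-α they summed to between 472 and 494 FPKM in all 4 libraries. KRT8 and KRT18 carried these sums, while KRT19 was at 0.057 and 0 FPKM in unstimulated control cells and at 0.30 and 0.33 FPKM in unstimulated KD cells. In unstimulated KD cells 1 of the 5 was called higher and 2 lower, also after the GC correction (background 60.1% and 51.2%). EPCAM and CDH1 were under 0.5 FPKM in every library. The 8 mesenchymal and osteoblast markers summed to 776 and 708 FPKM in unstimulated control cells, 551 and 538 in unstimulated KD cells and between 682 and 702 after TNF-α. SPARC, COL1A1 and VIM carried these sums, while RUNX2 was at 1.66 and 2.02 FPKM in unstimulated control and 2.94 and 2.88 FPKM in unstimulated KD cells. Of the 6 that passed the filter 1 was called higher and 4 lower (background 60.1%), and 1 higher and 1 lower after the GC correction (background 51.2%) or scaled to total reads (background 60.3%). The part of cell composition in the result was not tested.

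The genes outside the cluster whose log2(FPKM + 1) ran most like that of MT2A over the 8 libraries were RPSAP58 (Pearson r = 0.995), PRMT1 (0.995), ABT1 (0.995), UNG (0.994) and P4HA2 (0.993). In PRMT1, an arginine methyltransferase, unstimulated KD cells had 47.7 and 44.3 FPKM and unstimulated control cells 133 and 107 FPKM. RPSAP58 is a ribosomal protein pseudogene and may share reads with its parent gene. Such likeness was common, since 1009 of the 16528 genes had r of at least 0.95. The libraries share their groups, and 2 of the 8 are the unstimulated KD libraries with the low GC content and high mitochondrial share. Within the set, SLC30A1 had r = -0.98 with MT2A, MTF1 -0.60, MT1E 0.63 and MT1X 0.20. These are descriptions over 8 libraries of 4 groups.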

How the data were processed

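RNA of control and WSB2-KD U2OS cells, unstimulated or given TNF-α for 5 h (2 libraries each), was sequenced by Novogene. The authors deposited FPKM values for 58735 genes. The submitters' processing notes name HISAT2 2.0.5, featureCounts 1.5.0-p3 and GRCh38, and the strand of counting is not given. FPKM times gene length was a whole multiple of a library constant for 100% of values (tolerance 0.05 read), and these reads gave the depth and the authors' scaling, which equals median-of-ratios size factors over all 8 libraries. The paper's Methods name a count test, which was not used on FPKM.

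Genes with 10 reads at median depth in 2 libraries were kept (16528). log2(FPKM + 1) was fitted with limma 3.58.1 (R 4.3.3), a mean per group and trended variances (4 residual degrees of freedom). Calls had a Benjamini-Hochberg adjusted p under 0.05. The fit was tried on data simulated for KD against control after TNF-α, with 200 genes changed by a fold of 2. It recovered 59.4% of the changed genes that passed the filter, among 15927 genes, and called 3 unchanged genes. Fold changes on the log2(FPKM + 1) scale understate those of genes near 1 FPKM. The correction for GC content and length used splines with 5 degrees of freedom on each library.

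The genes described, the lists (zinc exporters, zinc importers, copper handling, glucocorticoid-induced genes, cell type markers) and the tests were chosen with earlier results of these data known. Named were all 8 genes, WSB2, from each list the genes called with TNF-α (none) and the 3 largest differences without TNF-α, and the 5 genes most like MT2A. Genes named beside these were chosen after their values were seen. Alternatives were a pseudocount of 0.1, other filters (none, or a mean of 1 CPM), total-read and upper-quartile scaling, voom, the GC correction, 4 libraries only, a replicate block and leaving out each library.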

Additional observations from a re-analysis of the deposited data

Results flagged for a closer look

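MT1E was flagged because both KD libraries were below both control libraries without TNF-α and above them with it. Its log2 difference of KD minus control was -0.50 without and 0.25 with TNF-α, and the difference between these 2 was not tested. After the correction for GC content and length the first was -0.086.

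Of the genes named from the lists, SLC39A10, ATP7A and ATOX1 were flagged in the same way, and for them too the difference was not tested. SLC39A10 had log2 differences of 1.42 without and -0.14 with TNF-α, ATP7A of 0.80 and -0.059, and ATOX1 of -0.81 and 0.088. After the correction for GC content and length, the values without TNF-α were 0.64 for SLC39A10, -0.03 for ATP7A and -0.77 for ATOX1. Of the 38 zinc, copper and glucocorticoid-induced genes tested, with cell type markers not counted, 8 had this pattern. They were these 3 and SLC30A2, SLC39A4, SLC39A13, PER1 and DUSP1, which were below control without TNF-α and above it with TNF-α. For these 5 the corrected values without TNF-α were 0.30, 0.41, -0.069, -0.23 and -0.048. The share of all genes with this pattern was not counted, so nothing is read from the 8. Libraries did not overlap for 79.8% of all genes without TNF-α and 46.2% with it.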

How the results depend on the processing

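The log2 difference of MT2A between KD and control cells with TNF-α ran from -0.94 to -0.80 when each library was left out in turn and passed the threshold without unstimulated control replicate 1 or 2, with voom (-0.87) and with only the 4 libraries compared (-0.87), so members called went from 0 to 1 there. Without TNF-α it ran from -2.91 to -2.28 over left-out libraries, and was -2.32 scaled to total reads and -2.12 with the GC correction. For TNF-α it ran from 0.26 to 0.90 in control cells, and in KD cells it was 1.93 scaled to total reads and 1.83 with the GC correction.

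The 19 genes called with TNF-α became 7 with no filter, 52 with voom, 64 with the GC correction and 39 with only 4 libraries, and from 0 to 98 over left-out libraries (0 without KD TNF-α replicate 2, at least 97 without either unstimulated control, and each of the 8 libraries moved it by over 1.5 times). For TNF-α in control cells the 701 became 368 with no filter and 238 with only 4 libraries, and from 229 to 2130 over left-out libraries, of which all but unstimulated control replicate 1 moved it by over 1.5 times. Total-read scaling turned the calls without TNF-α from 4932 higher and 4996 lower to 6515 and 3456, and those for TNF-α in KD cells from 5141 and 5187 to 3309 and 7240.

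Whether the replicate numbers pair the libraries is not known. Deviations of same-numbered libraries correlated between -0.19 and 0.35 across genes, highest between unstimulated control and unstimulated KD cells. For MT2A and MT1E replicate 1 was above replicate 2 in every group. With the replicate block 10 genes were called between KD and control with TNF-α, and MT2A had an adjusted p of 0.193 (limma). Metallothionein reads in unstimulated KD cells were 283 RPM with nuclear reads as the denominator, against 271 with all reads. MT1X between KD and control cells with TNF-α ran from -0.031 to 0.31 over left-out libraries, reversed without control TNF-α replicate 1, and WSB2 for TNF-α in KD cells to -0.25 scaled to total reads and -0.15 with the GC correction. The cause of these shifts was not tested. Of 773 alternative values 666 were labelled as unchanged. Differences had this label if they kept direction and side of the threshold, or moved by less than the spread. Counts of called genes were labelled by the size of their change. Many differences could not move, so the 666 does not measure how firm the results are. The replicate block, using only the 4 libraries compared, or leaving out a library outside the comparison kept the fitted difference (MT2A without TNF-α at -2.60). With 2 libraries a group no outlying library can be tested.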
